A study of Mus musculus with 35 samples.

Results

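Expression of 10 genes that mark eosinophils was examined in mouse lin- HSPCs, that is, bone marrow cells depleted of cells carrying markers of mature blood lineages, which are enriched for hematopoietic stem and progenitor cells. The genes were *Prg2*, *Prg3*, *Epx*, *Ear1*, *Ear2* and *Ear6*, which encode proteins of the eosinophil granule, *Siglecf*, *Ccr3* and *Il5ra*, which encode receptors of the cell surface, and *Alox15*, which encodes a lipoxygenase. They were taken by symbol from the 49671 genes of the deposited counts. All 10 passed the filter on low counts, as did 17166 genes in all.

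The cells came from C57Bl/6 mice and were transduced with a lentivirus for an empty vector (labelled Empty) or for 1 of 6 mEGFP-tagged forms of NUP98-HOXA9, a leukemia fusion oncoprotein that joins the disordered, FG motif-rich part of the nucleoporin NUP98 to the DNA-binding homeodomain of HOXA9. The forms were the full-length fusion G-NHA9 (labelled G-NHX9), G-NHA9-8FA (G-NHX9-8FA; 8 phenylalanines of FG motifs changed to alanine), G-NHA9-21FGAA (G-NHX9-21FGAA; 21 FG pairs changed to alanine pairs), G-NHA9Midi (G-NHX9-midi; a shortened NUP98 part), G-NHA9Midi-21FGAA (G-NHX9-midi-21FGAA; the shortened form with the 21 pairs changed, which leaves it without FG motifs) and G-NHA9-ΔDNA (G-NHX9-DDNA; a homeodomain altered to weaken DNA binding). Cells were sorted for mCherry in the empty vector group and for mCherry and mEGFP in the construct groups, so that the gates differed. All were grown for 1 week in Methocult with 10 ng/mL GM-CSF before total RNA was sequenced. The Methocult itself held myeloid and erythroid growth factors, and the cells had been kept in other cytokines before sorting. There were 5 libraries per group, 35 in all, from mice labelled 8 weeks old except empty vector library 4 (9 weeks), empty vector library 5 (10 weeks) and G-NHA9 library 1 (11 weeks).

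Eosinophils are granulocytes that arise from myeloid progenitors under GATA-1, C/EBP and PU.1, and whose growth and survival depend on IL-5, IL-3 and GM-CSF, cytokines whose receptors share a beta chain. Their granules hold cationic proteins, chiefly the major basic protein, eosinophil peroxidase and ribonucleases of the eosinophil-associated RNase family, which damage parasites and host tissue when released. Granule genes are transcribed early, in eosinophil progenitors and promyelocytes, whereas mature cells carry Siglec-F and the eotaxin receptor CCR3. Siglec-F and some of the RNases are also made by alveolar macrophages, which depend on GM-CSF, and 12/15-lipoxygenase by some tissue macrophages.

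The libraries held 31559914 to 75810659 counts each, and libraries of the same group differed by more than counting noise in all 70 pairs (chi-square of 22.5 or more per degree of freedom). Where a gene had 0 counts, up to 3 remain possible, or 0.0382 to 0.0996 CPM (counts scaled to a common library size by TMM), a limit that covers counting error only. The progenitor markers *Kit* (30.3 to 345 CPM) and *Cd34* (22.6 to 247 CPM) were present in every library, beside *Itgam* of mature myeloid cells (112 to 324 CPM). These levels do not say which cells of the cultures carried the transcripts. In such bulk samples fewer cells of a type and less RNA per cell cannot be told apart. The labels give differing mouse ages for some libraries but do not say whether each library came from an animal or culture of its own, so p-values measure the spread between these libraries, which may be technical.

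The genes lie on 6 chromosomes (GENCODE M21, GRCm38). *Prg2* (chr2:84980461-84983632, plus strand) and *Prg3* (chr2:84988215-84993886, plus strand) are neighbours on chromosome 2, 4582 bases apart with 0 protein-coding genes between them. The 3 *Ear* genes lie on chromosome 14: *Ear1* (chr14:43818765-43875517, minus strand) and *Ear2* (chr14:44102654-44103534, plus strand) are 227136 bases apart with 4 coding genes between them, and *Ear6* (chr14:51853699-51854643, plus strand) is 7750164 bases farther along. *Alox15* (chr11:70344152-70352031) and *Epx* (chr11:87864000-87875536) are both on the minus strand of chromosome 11, with 326 coding genes between them. The receptor genes lie apart, *Siglecf* at chr7:43351341-43359531 (plus), *Ccr3* at chr9:124021972-124031689 (plus) and *Il5ra* at chr6:106710357-106749037 (minus).

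The *Ear* genes are close copies of one another, which bears on how reads are assigned to them. *Ear1* and *Ear2* shared 95.7% of their coding bases (20 of 465 differed), and *Ear6* shared 87.3% with *Ear1* and 88.2% with *Ear2*. The first 120 coding bases (bases 1 to 120 from the start codon, GENCODE M21 transcripts) are shown so that the copies can be compared. Capitals mark the 16 positions at which the 3 genes do not all share a base:
*Ear1*: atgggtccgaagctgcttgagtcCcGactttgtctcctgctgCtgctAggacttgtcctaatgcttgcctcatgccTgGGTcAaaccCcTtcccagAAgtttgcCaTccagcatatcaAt
*Ear2*: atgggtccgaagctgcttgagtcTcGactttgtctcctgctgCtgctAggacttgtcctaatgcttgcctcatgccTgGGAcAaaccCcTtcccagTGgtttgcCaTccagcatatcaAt
*Ear6*: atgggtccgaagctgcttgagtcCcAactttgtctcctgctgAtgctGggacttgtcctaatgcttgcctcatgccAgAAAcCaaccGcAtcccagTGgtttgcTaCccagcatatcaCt
Of the 100-base windows of its transcripts, *Ear1* shared 147 of 614 (23.9%) exactly with another gene (*Ear-ps9* or *Ear10*) and *Ear2* shared 86 of 620 (13.9%; *Ear-ps2* or *Ear10*), whereas *Ear6* and the other 7 members shared 0. The values of *Ear1* and *Ear2* are therefore uncertain by the reads that could have been split with these copies. *Ear1* and *Ear2* also overlap noncoding genes on the opposite strand, and how the counting used strand is not given in the sources used here. On its own strand *Ear1* overlaps the pseudogenes *Ear-ps9* and *Ear-ps12*. Over all genes that overlap it, *Ear1* shares 17 exonic bases.

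Upstream sequence is shown for *Ear1* and *Ear2*, close copies whose fold changes differed in size but were not tested against each other. It is also shown for the receptor genes *Ccr3* and *Il5ra*, which moved in opposite directions with G-NHA9Midi. RefSeq (GRCm38.p6) gives the 250 bases before and 50 after a transcription start for 8 of the 10 members (not *Prg2* and *Alox15*). The 100 bases before the start are printed 5′ to 3′ on the gene's strand:
*Ear1* (chr14:43819640-43819739, minus strand): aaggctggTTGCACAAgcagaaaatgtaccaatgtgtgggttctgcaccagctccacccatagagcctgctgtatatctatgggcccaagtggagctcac
*Ear2* (chr14:44102554-44102653, plus strand): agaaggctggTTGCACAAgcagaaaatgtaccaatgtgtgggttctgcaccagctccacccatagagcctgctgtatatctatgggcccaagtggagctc
*Ccr3* (chr9:124021871-124021970, plus strand): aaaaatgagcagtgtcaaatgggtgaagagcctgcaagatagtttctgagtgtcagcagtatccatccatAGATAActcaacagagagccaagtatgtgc
*Il5ra* (chr6:106749038-106749137, minus strand): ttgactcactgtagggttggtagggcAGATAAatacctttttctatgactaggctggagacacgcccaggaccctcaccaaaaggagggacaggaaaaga
Capitals mark a match, on either strand, to AGATAA (the core that GATA factors prefer) or TTGCNNAA (a C/EBP-type site, N for any base). Over the 300 bases, AGATAA was found in *Ccr3*, first base at -30 from the start, and in *Il5ra*, at -74, and in 11.2% of 32851 RefSeq promoters. TTGCNNAA was found in *Ear1* at -92 and *Ear2* at -90, against 10.8% of promoters. TTCNNNGAA, the core of STAT sites, was in 0 of the 8 and in 8.30% of promoters. The 3 motifs share no bases in these windows. A match describes letters only. Over the 300 bases, *Ear1* and *Ear2* were the same at 294 of 297 aligned bases (99.0%). The RefSeq start of *Ear1* lies within an intron of the longer GENCODE gene.

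In empty vector cells the granule genes were abundant and the receptor genes scarce. Per kilobase of exon, the level was highest for *Prg2* (1059.6 ± 207 CPM per kb, SD, n = 5), the major basic protein, followed by *Ear2* (161 ± 27.2), *Epx* (157 ± 39.7), *Ear6* (105 ± 23.7), *Ear1* (69.8 ± 23.9) and *Prg3* (54.0 ± 7.08). *Siglecf* (4.64 ± 0.406) and *Alox15* (2.31 ± 0.930) were far lower, and *Il5ra* (0.343 ± 0.154) and *Ccr3* (0.229 ± 0.0967) lower still. Together the 10 genes took 0.132% to 0.180% of an empty vector library. Their share was 0.0312% to 0.108% with G-NHA9, 0.00718% to 0.0298% with G-NHA9-8FA and 0.00443% to 0.0129% with G-NHA9Midi, which was the lowest. It was 0.167% to 0.254% with G-NHA9-21FGAA, 0.0858% to 0.241% with G-NHA9Midi-21FGAA and 0.165% to 0.272% with G-NHA9-ΔDNA.

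**Figure D1:**
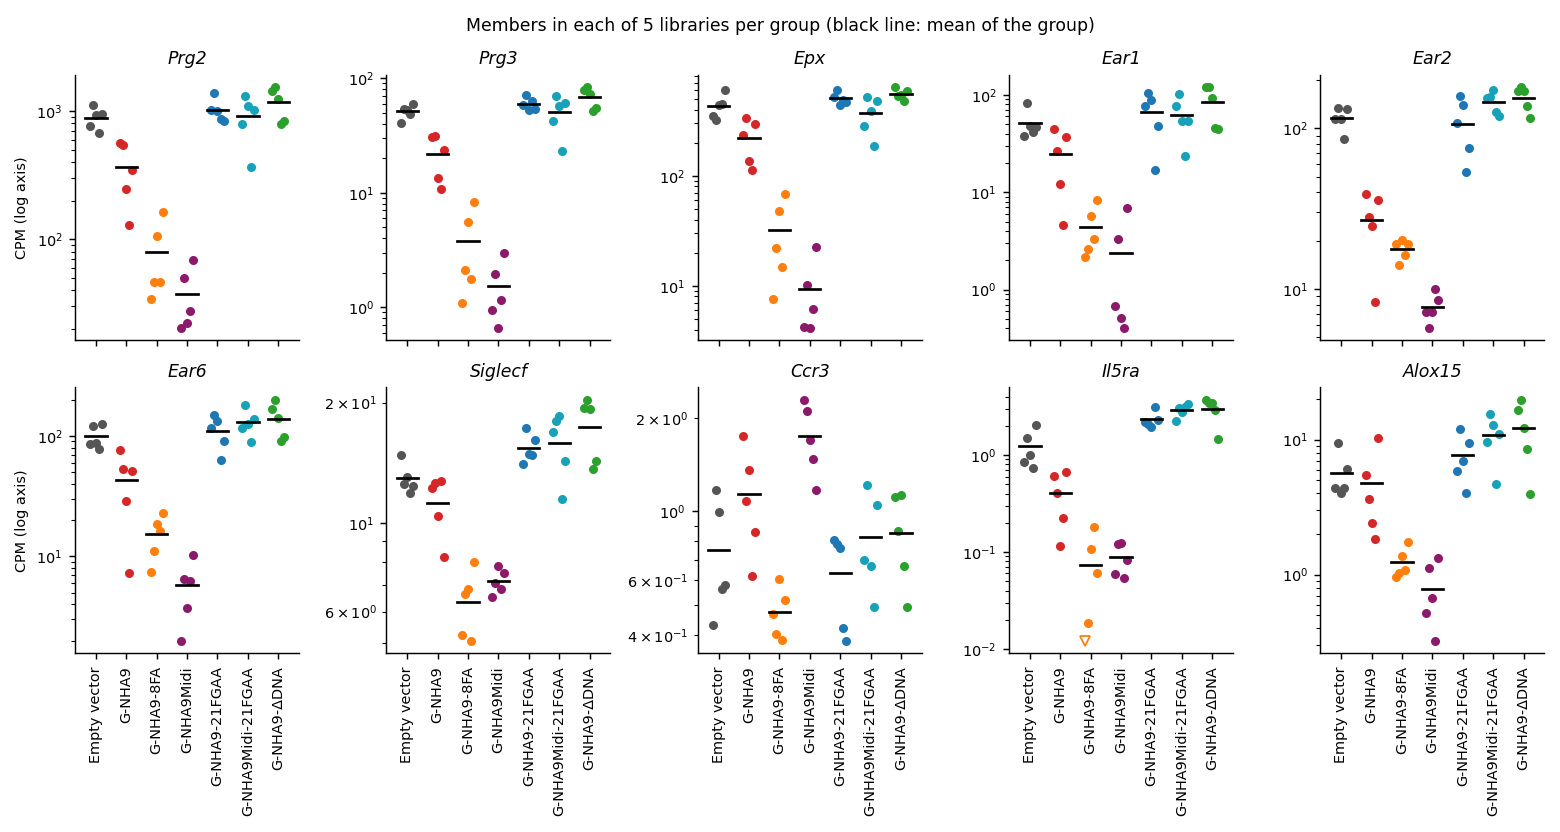
CPM (log axis) of each member in the 5 libraries of each of the 7 groups; each point is 1 library, the black line is the mean of the group, and the open triangle for *Il5ra* is a library with 0 counts, drawn at the foot of the axis. The 6 granule genes, *Il5ra* and *Alox15* are low with G-NHA9-8FA and G-NHA9Midi, whereas *Ccr3* is highest with G-NHA9Midi (mean 1.75 CPM).

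The first question was what each construct did against the empty vector. All 6 comparisons share the same 5 empty vector libraries. Changes were called where the Benjamini-Hochberg adjusted p of edgeR's quasi-likelihood test, taken over all genes tested, was under 0.05. Fold changes are given as log2 values with standard errors. Against the empty vector, 5 members were lower with G-NHA9 (15.2% of all genes were called lower), 9 were lower with G-NHA9-8FA (13.2%), and 9 were lower (20.0%) and 1 higher (20.5%) with G-NHA9Midi. The median log2 fold change of the members was -1.12, -3.10 and -4.01, beside 0.01, 0.03 and 0.02 over all genes tested. By contrast, 1 member was higher with G-NHA9-21FGAA (14.7% of all genes were called higher), 1 with G-NHA9Midi-21FGAA (9.59%) and 2 with G-NHA9-ΔDNA (9.85%), with medians of 0.23, 0.29 and 0.43, beside -0.02, -0.02 and -0.01 over all genes. The other members did not pass the test in these 3 comparisons. The members whose 5 libraries all lay below the 5 empty vector libraries numbered 5 with G-NHA9 (9.51% of all genes), 9 with G-NHA9-8FA (8.75%) and 9 with G-NHA9Midi (13.9%).

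**Figure D2:**
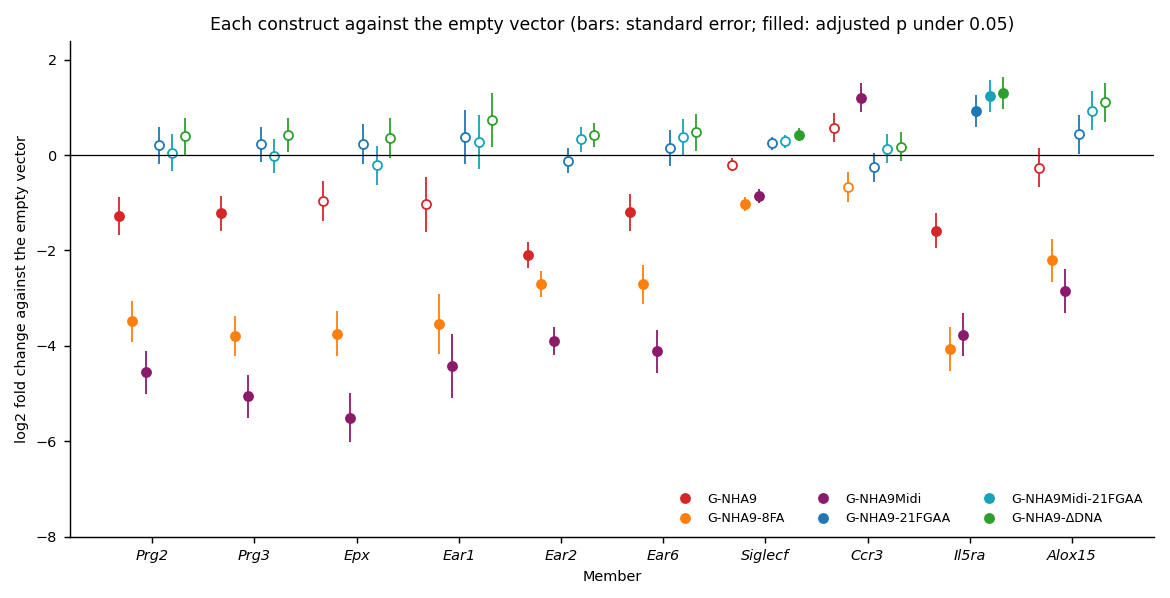
log2 fold change, relative to the empty vector, of each member under the 6 constructs (points), with the standard error of the fit (bars); filled points passed an adjusted p of 0.05. G-NHA9-8FA and G-NHA9Midi lie far below 0 for the granule genes, *Il5ra* and *Alox15* (down to -5.51 for *Epx* with G-NHA9Midi), the 3 constructs with 21FGAA or ΔDNA lie near or above 0, and *Ccr3* with G-NHA9Midi (1.21) stands apart from the other members.

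*Prg2* encodes the major basic protein of the granule core. In empty vector libraries 1 to 5 it was 759, 1118, 933, 677 and 952 CPM, and in G-NHA9 libraries 1 to 5 it was 560.1, 546, 247, 129 and 347 CPM. All G-NHA9 libraries were below all empty vector libraries, and library 4 was the lowest of them. The levels were 34.0, 46.2, 107, 46.5 and 163 CPM with G-NHA9-8FA and 20.3, 50.2, 22.2, 27.6 and 68.5 CPM with G-NHA9Midi. These 2 groups overlapped each other and were well below G-NHA9, except that the highest G-NHA9-8FA library exceeded G-NHA9 library 4. *Prg2* was 2.43-fold lower than in empty vector cells with G-NHA9 (log2 fold change -1.28 ± 0.39, SE, adjusted p = 0.0121). It was 11.2-fold lower with G-NHA9-8FA (-3.49 ± 0.43, SE, adjusted p = 1.8e-07) and 23.5-fold lower with G-NHA9Midi (-4.56 ± 0.45, SE, adjusted p = 1.1e-09). In the other groups the levels were 1013, 1395, 1001, 860.3 and 841 CPM (G-NHA9-21FGAA), 795, 1322, 1092, 368 and 1017 CPM (G-NHA9Midi-21FGAA) and 1426, 1550.3, 1245, 794 and 839 CPM (G-NHA9-ΔDNA). Each of them overlapped the empty vector, and the fold changes were 0.20 ± 0.39 (SE), 0.05 ± 0.39 (SE) and 0.40 ± 0.39 (SE), none past the threshold.

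*Prg3*, the paralog of *Prg2* next to it on the chromosome, was lower in level. In empty vector cells it was at 51.2 ± 6.72 CPM (SD, n = 5), against 22.0 ± 9.51 CPM with G-NHA9, 3.75 ± 3.06 CPM with G-NHA9-8FA and 1.54 ± 0.944 CPM with G-NHA9Midi. Its log2 fold changes against the empty vector were -1.22 ± 0.37 (SE, adjusted p = 0.0109), -3.79 ± 0.42 (SE, adjusted p = 2.5e-08) and -5.06 ± 0.45 (SE, adjusted p = 1.2e-10). *Epx* encodes eosinophil peroxidase, which makes hypohalous acids from hydrogen peroxide. It was 346, 322, 439.7, 445 and 598 CPM in the empty vector libraries and 234, 334, 135, 112 and 293 CPM in the G-NHA9 libraries. G-NHA9 library 2 exceeded 1 empty vector library, so the groups overlapped, and the fold change of -0.96 ± 0.42 (SE, adjusted p = 0.0816) did not pass. With the replicate number as a block, *Epx* was called (-1.02, adjusted p = 0.0218), as was *Ear1* (-1.27, adjusted p = 0.0325), for 7 members lower in all. This pairing was inferred from correlated deviations of same-numbered libraries and is not labelled. With G-NHA9Midi *Epx* was 4.27, 10.2, 4.11, 6.12 and 22.5 CPM. Its fall there, -5.51 ± 0.51 (SE, adjusted p = 2.6e-10), was the largest of any member in any comparison with the empty vector, and it was -6.13 without G-NHA9Midi library 5, the highest.

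The 3 *Ear* genes encode ribonucleases of the RNase A superfamily with antiviral and chemoattractant activity. *Ear2* fell most of the 10 members with G-NHA9. It was 114, 135, 114, 85.3 and 131 CPM in the empty vector libraries and 38.8, 27.9, 24.7, 8.31 and 35.7 CPM in the G-NHA9 libraries. The lowest empty vector library was far above the highest G-NHA9 library. The log2 fold change was -2.10 ± 0.27 (SE, adjusted p = 2.6e-07), a 4.28-fold difference of means. *Ear2* was 19.0, 14.2, 20.2, 16.3 and 19.1 CPM with G-NHA9-8FA and 7.18, 5.70, 7.22, 9.95 and 8.55 CPM with G-NHA9Midi. These levels varied little within a group, and the 2 groups did not overlap. The fold changes against the empty vector were -2.71 ± 0.28 (SE, adjusted p = 6.1e-09) and -3.91 ± 0.29 (SE, adjusted p = 2.7e-12). *Ear6* was 86.1, 121, 86.8, 77.4 and 126 CPM in empty vector cells and 75.8, 53.5, 28.6, 7.32 and 51.0 CPM with G-NHA9. All G-NHA9 libraries were below all empty vector libraries (-1.20 ± 0.39, SE, adjusted p = 0.0176), but the call was lost in a fit to these 2 groups only (adjusted p = 0.064). *Ear6* was 7.41 to 22.8 CPM with G-NHA9-8FA and 1.97 to 10.3 CPM with G-NHA9Midi, with fold changes of -2.71 ± 0.41 (SE, adjusted p = 6.9e-06) and -4.12 ± 0.44 (SE, adjusted p = 5.9e-09).

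*Ear1* was 37.9, 81.4, 47.3, 41.3 and 47.0 CPM in empty vector libraries and 44.7, 26.5, 12, 4.62 and 36.9 CPM with G-NHA9. Empty vector library 2 was far above the others of its group, G-NHA9 library 4 was far below the others of its own, and the groups overlapped. The difference of -1.03 ± 0.57 (SE, adjusted p = 0.174) did not pass. With G-NHA9Midi *Ear1* was 0.678, 3.33, 0.511, 0.401 and 6.96 CPM, from 34, 111, 25, 15 and 338 counts. Libraries 2 and 5 were above the other 3 by several fold. Its log2 fold change there was -4.42 ± 0.67 (SE, adjusted p = 2.4e-06), and -5.45 without G-NHA9Midi library 5. With G-NHA9-8FA *Ear1* was 2.17 to 8.40 CPM (-3.54 ± 0.63, SE, adjusted p = 7.2e-05).

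*Il5ra* encodes the IL-5-binding chain of the IL-5 receptor. It was 0.840, 1.52, 0.994, 0.730 and 2.05 CPM in empty vector libraries, from 35, 66, 43, 22 and 67 counts, and 0.611, 0.402, 0.116, 0.223 and 0.676 CPM in G-NHA9 libraries, from 22, 19, 4, 9 and 26 counts. All G-NHA9 libraries were below all empty vector libraries (-1.59 ± 0.37, SE, adjusted p = 0.00122). With G-NHA9-8FA it held 0, 1, 5, 7 and 2 counts, and with G-NHA9Midi 3, 4, 6, 2 and 4 counts. The library with 0 counts allows up to 0.0699 CPM. In both groups the gene was at or near the limit of detection, with fold changes of -4.07 ± 0.47 (SE, adjusted p = 5.7e-08) and -3.77 ± 0.45 (SE, adjusted p = 4.0e-08), and the first was -4.69 without G-NHA9-8FA library 4. *Il5ra* was the 1 member that was higher than in empty vector cells with each of the other 3 constructs. It was 2.19, 2.11, 1.94, 3.13 and 2.29 CPM with G-NHA9-21FGAA, 2.26, 3.04, 2.78, 3.10 and 3.36 CPM with G-NHA9Midi-21FGAA and 3.74, 3.46, 3.48, 2.95 and 1.46 CPM with G-NHA9-ΔDNA. All G-NHA9Midi-21FGAA libraries were above all empty vector libraries (5.98% of all genes did so), whereas the G-NHA9-21FGAA libraries overlapped empty vector library 5, and the G-NHA9-ΔDNA libraries overlapped empty vector libraries 2 and 5. The log2 fold changes were 0.93 ± 0.33 (SE, adjusted p = 0.0353), 1.25 ± 0.33 (SE, adjusted p = 0.00971) and 1.30 ± 0.33 (SE, adjusted p = 0.0074). The first call was lost without empty vector library 1, 3 or 4 or G-NHA9-21FGAA library 4 or 5 (log2 fold change 0.80 to 0.96, adjusted p 0.0527 to 0.104), and the other calls held without any 1 library.

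*Siglecf* encodes a sialic acid-binding receptor that restrains eosinophil numbers. Its range was narrow. It was 14.8, 12.5, 13.1, 11.9 and 12.4 CPM in empty vector cells, 12.2, 12.6, 10.4, 12.8 and 8.22 CPM with G-NHA9, 5.24, 6.62, 6.84, 5.06 and 7.98 CPM with G-NHA9-8FA and 6.52, 7.08, 7.81, 6.85 and 7.48 CPM with G-NHA9Midi. G-NHA9 overlapped the empty vector, and both other groups lay below it without overlap. The log2 fold changes were -0.20 ± 0.14 (SE, adjusted p = 0.284), -1.03 ± 0.14 (SE, adjusted p = 1.1e-06) and -0.86 ± 0.14 (SE, adjusted p = 8.0e-06), far smaller than those of the granule genes. *Siglecf* was higher with G-NHA9-ΔDNA (0.43 ± 0.14, SE, adjusted p = 0.029), a call lost in 6 of the 10 fits that left out 1 library (G-NHA9-ΔDNA library 1, 2 or 3, or empty vector library 2, 4 or 5; log2 fold change 0.37 to 0.42, adjusted p 0.0526 to 0.0897), with no filter (adjusted p = 0.0595) and with 8-week mice only (adjusted p = 0.129). Macrophages of the alveolar type also make Siglec-F, so their markers are given beside it. Of 13 such markers, 12 or 13 had over 3 counts in each group. Their summed level was 9365 to 20161 CPM with the empty vector, 2225 to 5996 CPM with G-NHA9, 5167 to 8520.4 CPM with G-NHA9-8FA and 3172 to 5702 CPM with G-NHA9Midi. The sums of the G-NHA9 libraries overlapped those of the G-NHA9Midi libraries. A large part of these sums was *Chil3*, at 1993 ± 1036 CPM (SD, n = 5) with G-NHA9 and 1946 ± 641 CPM with G-NHA9Midi. Of the complement genes, markers of mature macrophages, *C1qa* averaged 0.0256 to 0.467 CPM over the groups, with G-NHA9 the highest, and *C1qb* and *C1qc* rose with G-NHA9 (3.09 ± 0.39, SE, adjusted p = 2.0e-07 and 2.92 ± 0.41, SE, adjusted p = 1.2e-06), to 5.33 ± 1.48 and 4.86 ± 1.70 CPM. The part of macrophages in the *Siglecf* values was not tested.

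*Ccr3*, the receptor for eotaxins, went against the other members with G-NHA9Midi. It was 0.432, 1.17, 0.994, 0.564 and 0.582 CPM in empty vector cells, from 18, 51, 43, 17 and 19 counts, and 2.29, 2.10, 1.70, 1.47 and 1.17 CPM with G-NHA9Midi, from 115, 70, 83, 55 and 57 counts. All G-NHA9Midi libraries were above all empty vector libraries, although library 5 was only just above empty vector library 2. The log2 fold change was 1.21 ± 0.30 (SE, adjusted p = 0.00168), a 2.31-fold difference of means, and 13.4% of all genes were above without overlap. With G-NHA9-8FA, which lowered the same other 9 members, *Ccr3* was 0.466, 0.402, 0.604, 0.385 and 0.519 CPM (-0.67 ± 0.32, SE, adjusted p = 0.13). With G-NHA9 it was 1.75, 1.08, 1.36, 0.618 and 0.858 CPM (0.58 ± 0.31, SE, adjusted p = 0.154). Both overlapped the empty vector. Its level rests on few counts, from 15 to 115 a library, and a filter at a mean of 1 CPM removed it. The log2 fold changes with G-NHA9-21FGAA, G-NHA9Midi-21FGAA and G-NHA9-ΔDNA were -0.26 ± 0.31 (SE), 0.14 ± 0.31 (SE) and 0.18 ± 0.31 (SE), none past the threshold.

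*Alox15* encodes 12/15-lipoxygenase, which oxygenates arachidonic acid. It was 4.39, 9.50, 4.02, 4.38 and 6.03 CPM in empty vector cells and 5.45, 3.66, 2.41, 1.83 and 10.4 CPM with G-NHA9, where the groups overlapped (-0.26 ± 0.41, SE, adjusted p = 0.678) and library 5 was higher than any empty vector library. It was 0.955 to 1.74 CPM with G-NHA9-8FA (-2.21 ± 0.44, SE, adjusted p = 0.000306) and 0.321 to 1.32 CPM with G-NHA9Midi (-2.84 ± 0.46, SE, adjusted p = 7.8e-06), both without overlap. With G-NHA9-ΔDNA it was 16.7, 19.9, 12.3, 8.49 and 3.94 CPM, with library 5 below all 5 empty vector libraries, a difference of 1.11 ± 0.41 (SE, adjusted p = 0.057) that missed the threshold but passed it with the replicate number as a block (1.17, adjusted p = 0.0105), with DESeq2 (1.12, adjusted p = 0.035), and without empty vector library 2 or G-NHA9-ΔDNA library 5 (1.34 to 1.39, adjusted p 0.0167 to 0.0357). With G-NHA9Midi-21FGAA it was 4.73 to 15.6 CPM (0.93 ± 0.41, SE, adjusted p = 0.114), called with the block (0.91, adjusted p = 0.042), which makes 2 members higher there.

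In the order of group means, G-NHA9-ΔDNA was highest for 9 of the 10 members and G-NHA9Midi for *Ccr3*. G-NHA9Midi was lowest for the 6 granule genes and *Alox15*, and G-NHA9-8FA for *Siglecf*, *Il5ra* and *Ccr3*. Neighbours in this order mostly overlapped. For each of the 9 members other than *Ccr3*, the upper 4 groups (G-NHA9-ΔDNA, G-NHA9-21FGAA, G-NHA9Midi-21FGAA and the empty vector) overlapped from one to the next, in varying order. The first gap lay between the empty vector and G-NHA9 for *Prg2*, *Ear6* and *Il5ra*, between G-NHA9-21FGAA and G-NHA9 for *Ear2*, and below G-NHA9 for *Prg3*, *Epx*, *Siglecf* and *Alox15*. *Ear1* and *Ccr3* had no gap between neighbouring groups.

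The second question was how each altered form differed from G-NHA9 itself. These 4 comparisons share the 5 G-NHA9 libraries. Against G-NHA9, 9 members were lower with G-NHA9-8FA (8.04% of all genes were called lower) and 9 with G-NHA9Midi (11.2%). The members not called were *Ear2* with G-NHA9-8FA (-0.61 ± 0.26, SE, adjusted p = 0.116), which passed without G-NHA9 library 4 (-0.84, adjusted p = 0.00949), and *Ccr3* with G-NHA9Midi (0.63 ± 0.29, SE, adjusted p = 0.137). The largest falls were those of *Epx*, -2.79 ± 0.45 (SE, adjusted p = 4.4e-05) with G-NHA9-8FA and -4.55 ± 0.49 (SE, adjusted p = 2.8e-08) with G-NHA9Midi, the second being -5.18 without G-NHA9Midi library 5. *Ear1* with G-NHA9Midi was at -3.39, and at -4.41 without that library. *Siglecf* and *Ccr3* were lower with G-NHA9-8FA than with G-NHA9 (-0.83 ± 0.14, SE, adjusted p = 8.6e-05 and -1.25 ± 0.32, SE, adjusted p = 0.00675). Without overlap, 5 members lay below G-NHA9 with G-NHA9-8FA (5.69% of all genes) and 5 with G-NHA9Midi (7.65%). *Il5ra* with G-NHA9-8FA was at -2.48, or -3.09 without G-NHA9-8FA library 4.

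Changing the 21 FG pairs or weakening DNA binding went the other way. By the paper's count, the forms above with mostly lower levels also hold fewer FG motifs than G-NHA9. With G-NHA9-21FGAA 7 members were higher than with G-NHA9 (8.91% of all genes were called higher), 6 of them without overlap (6.38%), and with G-NHA9-ΔDNA 9 were higher (10.7%), 7 without overlap (7.03%). The median log2 fold changes were 1.38 and 1.66. *Il5ra* rose most, by 2.52 ± 0.37 (SE, adjusted p = 4.3e-06) and 2.89 ± 0.37 (SE, adjusted p = 3.3e-07), followed by *Ear2* (1.98 ± 0.27, SE, adjusted p = 1.2e-06 and 2.52 ± 0.27, SE, adjusted p = 1.4e-08). *Prg2* rose by 1.48 ± 0.40 (SE, adjusted p = 0.00727) and 1.68 ± 0.40 (SE, adjusted p = 0.0021). *Ear1* (1.41 ± 0.57, SE, adjusted p = 0.0916) and *Alox15* (0.70 ± 0.41, SE, adjusted p = 0.291) did not pass with G-NHA9-21FGAA. *Ccr3* was not called in either (-0.84 ± 0.31, SE, adjusted p = 0.0559 and -0.40 ± 0.30, SE, adjusted p = 0.402). With the replicate number as a block, *Ear1* (1.48, adjusted p = 0.0207) and *Ccr3* (-0.83, adjusted p = 0.0144), the latter lower, were also called with G-NHA9-21FGAA.

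*Epx* with G-NHA9-21FGAA (1.19 ± 0.42, SE, adjusted p = 0.049) lost its call in 8 of 10 fits without 1 library (all but those without G-NHA9 library 2 or 5; log2 fold change 1.02 to 1.23, adjusted p 0.0563 to 0.137), and *Siglecf* (0.46 ± 0.14, SE) lost it without G-NHA9-21FGAA library 2 or G-NHA9 library 5 (0.38 to 0.41, adjusted p 0.0511 to 0.0514). Calls were gained there by *Ear1* without G-NHA9-21FGAA library 4 (1.66, adjusted p = 0.0485), by *Alox15* without G-NHA9 library 5 (1.22, adjusted p = 0.0347) and by *Ccr3* without G-NHA9 library 4 (-0.99, adjusted p = 0.0261) or G-NHA9-21FGAA library 1 (-0.94, adjusted p = 0.0496). With G-NHA9-ΔDNA calls were lost by *Ear1* without G-NHA9-ΔDNA library 1 or 2 or G-NHA9 library 3 or 4 (1.49 to 1.60, adjusted p 0.0583 to 0.0717), by *Epx* without G-NHA9 library 3 or 4 (1.15 to 1.20, adjusted p 0.0599 to 0.0699) and by *Alox15* without G-NHA9-ΔDNA library 2 or G-NHA9 library 4 (1.13 to 1.17, adjusted p 0.0507 to 0.0558).

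The change of 21 FG pairs was made both in the full-length and in the shortened form, so its effect could be compared between them. Against G-NHA9Midi, 9 members were higher with G-NHA9Midi-21FGAA (21.0% of all genes) and *Ccr3* was lower (22.2%; -1.07 ± 0.30, SE, adjusted p = 0.00364). The 9 lay above G-NHA9Midi without overlap (14.2% of all genes), and the median over members was 4.55, with 5.29 for *Epx*, 5.05 for *Prg3*, 5.02 for *Il5ra* and 1.14 for *Siglecf*. The *Epx* and *Ear1* values were 5.92 and 5.73 without G-NHA9Midi library 5. The effect in the full-length form minus that in the shortened form was tested as an interaction, a comparison added after the values had been seen. It was called for 9 members (12.6% of all genes), all with a smaller effect in the full-length form, from -0.69 ± 0.19 (SE, adjusted p = 0.0161) for *Siglecf* to -4.10 ± 0.62 (SE, adjusted p = 2.0e-05) for *Epx*. For *Ccr3* the effects, -0.84 and -1.07, differed by 0.23 ± 0.43 (SE, adjusted p = 0.785). The 9 calls held under every alternative and without any 1 library. The starting levels differed between the forms (9 members were lower with G-NHA9Midi than with G-NHA9), so the interaction largely restates that difference. With 21FGAA the levels of the full-length and shortened forms were 1022 ± 223 and 919 ± 361 CPM for *Prg2* (SD, n = 5), 59.9 ± 7.81 and 50.6 ± 18.3 CPM for *Prg3* and 15.4 ± 1.28 and 15.8 ± 2.91 CPM for *Siglecf*.

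**Figure D3:**
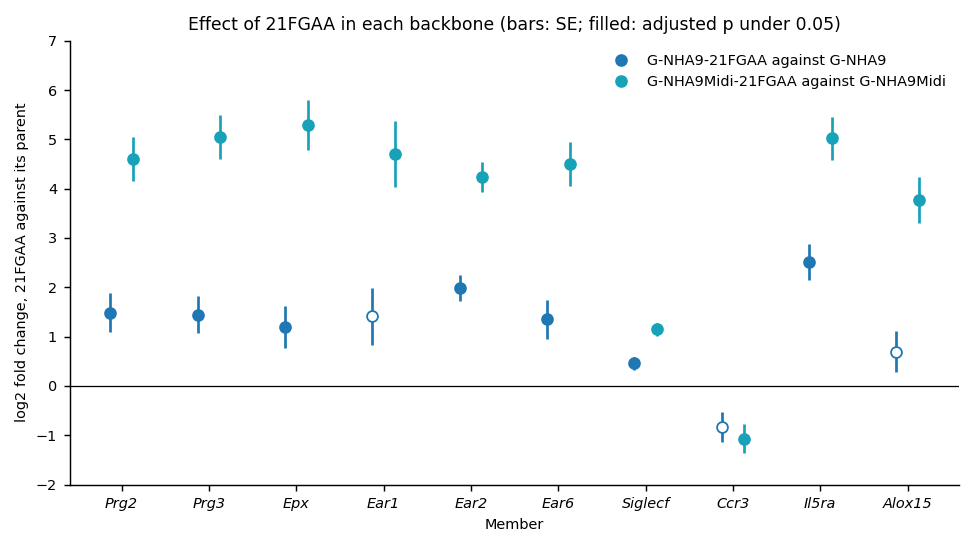
log2 fold change of each member with the 21FGAA form against its parent, in the full-length form (G-NHA9-21FGAA against G-NHA9) and in the shortened form (G-NHA9Midi-21FGAA against G-NHA9Midi); bars are standard errors and filled points passed an adjusted p of 0.05. For 9 members the shortened form gives the larger rise, such as 4.61 against 1.48 for *Prg2*, and *Ccr3* lies below 0 in both.

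G-NHA9Midi and G-NHA9-8FA, which both lowered 9 members, were compared directly. With G-NHA9Midi 3 members were lower (2.74% of all genes) and *Ccr3* was higher (1.51%) than with G-NHA9-8FA. The 3 were *Epx* (-1.76 ± 0.44, SE, adjusted p = 0.0145), *Ear2* (-1.20 ± 0.27, SE, adjusted p = 0.00621) and *Ear6* (-1.41 ± 0.41, SE, adjusted p = 0.0422), and *Ccr3* differed by 1.87 ± 0.31 (SE, adjusted p = 0.000292). *Ccr3* (2.99% of all genes) and *Ear2* (2.26%) did so without overlap. The *Epx* call was lost without G-NHA9-8FA library 3 or 5 or G-NHA9Midi library 3 (-1.57 to -1.29, adjusted p 0.0511 to 0.0766) and its value was -2.39 without G-NHA9Midi library 5. The *Ear6* call was lost in 8 of 10 such fits, all but those without G-NHA9-8FA library 1 or G-NHA9Midi library 5 (-1.50 to -1.18, adjusted p 0.0516 to 0.129), and both were lost in a fit to the 2 groups only. *Prg2* (-1.07 ± 0.40, SE, adjusted p = 0.132) and *Prg3* (-1.28 ± 0.42, SE, adjusted p = 0.0824) did not pass. Without G-NHA9Midi library 5 they passed (-1.40, adjusted p = 0.0473, and -1.70, adjusted p = 0.0246), and *Prg3* also did without G-NHA9-8FA library 1 (-1.50, adjusted p = 0.0287).

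The granule genes also varied together from library to library. Over the 35 libraries, the Pearson r of log2 CPM between pairs of the 6 granule genes (15 pairs) was 0.88 to 0.99, with a median of 0.96. These values hold the differences between groups. For the deviations of each library from its group mean, r was 0.27 to 0.95, with a median of 0.76. *Alox15* followed them (0.89 to 0.96 over libraries, 0.52 to 0.82 for deviations). For *Il5ra* the deviations gave 0.25 to 0.49, and for *Siglecf* 0.08 to 0.53. *Ccr3* had r of -0.28 to -0.18 with the granule genes over libraries, but 0.14 to 0.50 for deviations within groups. All genes of a library share its depth and scaling, and these correlations are descriptions.

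**Figure D4:**
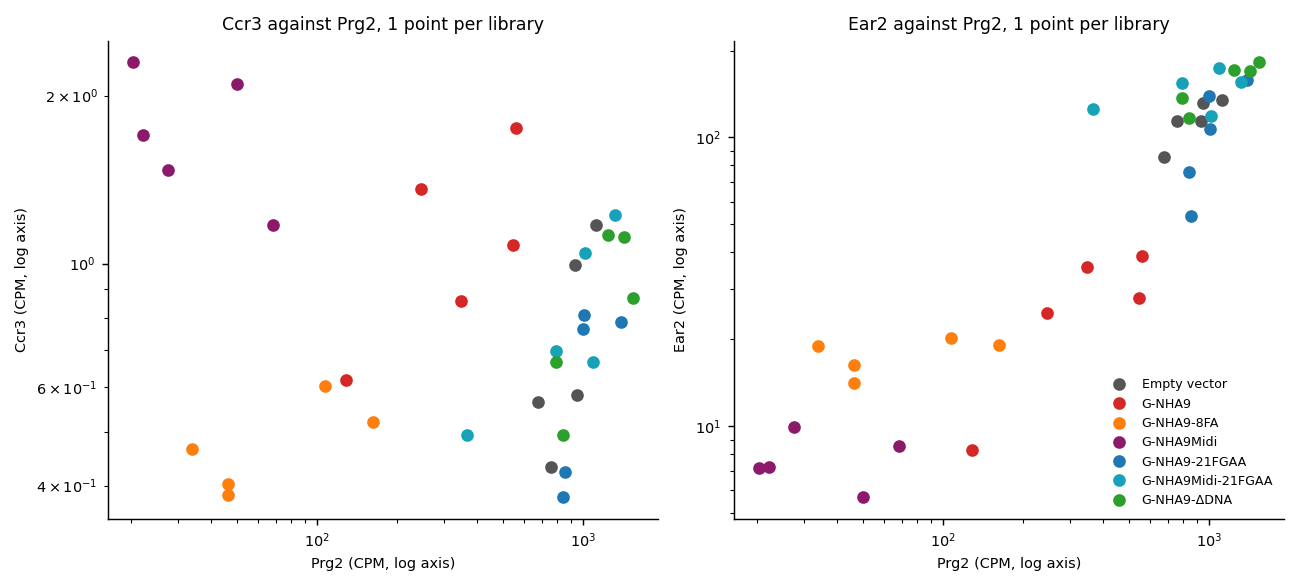
CPM of *Ccr3* (left) and *Ear2* (right) against CPM of *Prg2*, on log axes, with 1 point for each of the 35 libraries, coloured by group. The G-NHA9Midi libraries combine low *Prg2* (20.3 to 68.5 CPM) with the highest group mean of *Ccr3*, and *Ear2* forms a low cloud in the groups G-NHA9Midi, G-NHA9-8FA and G-NHA9 and a high one in the others.

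The granule genes did not fall in fixed proportion. The ratio of *Prg2* to *Prg3* counts had a median of 17.6 in empty vector libraries (13.8 to 20.7), 17.4 with G-NHA9 (11.9 to 18.5) and 24.0 with G-NHA9Midi (21.6 to 33.9). The G-NHA9Midi ratios lay above all empty vector ratios. The ratio of *Prg2* to *Epx* was 2.12 (1.52 to 3.47) and 4.75 (3.04 to 5.40). The ratio of *Ear2* to *Prg2* was 0.126 (0.120 to 0.150) with the empty vector, lower with G-NHA9 at 0.0693 (0.0512 to 0.103), and higher at 0.307 (0.118 to 0.558) with G-NHA9-8FA and 0.325 (0.114 to 0.360) with G-NHA9Midi. G-NHA9 did not overlap the empty vector, whereas the other 2 groups did at their low ends. The ratio of *Ear2* to *Ear1* was 2.41 with the empty vector (1.65 to 3.0), 1.05 with G-NHA9 (0.868 to 2.06) and 10.6 with G-NHA9Midi (1.23 to 24.8), where reads of the copies shown above could weigh on it. These ratios were not tested.

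Other genes of the eosinophil program were read as lists. Of all genes tested, 16.9% were called higher and 15.2% lower with G-NHA9, and 20.5% and 20.0% with G-NHA9Midi, and many of the counts in these short lists are near those shares. No list was tested against them. Of the further RNase A family genes, 4 of 4 tested were lower with G-NHA9 (median log2 fold change -0.85), and 3 were lower with G-NHA9Midi (median -0.97). *Rnase2a*, another eosinophil-associated RNase, fell with both (log2 fold change -2.23 ± 0.53, SE, adjusted p = 0.00139 and -3.93 ± 0.58, SE, adjusted p = 1.8e-06), and *Rnase4*, which many cells secrete, fell as well (-0.99 ± 0.16, SE, adjusted p = 1.4e-05 and -1.20 ± 0.16, SE, adjusted p = 3.8e-07). *Ang* was at -0.71 and -0.74 and *Rnase6* at -0.52 with G-NHA9. The transcription factors of the lineage had 3 higher and 2 lower of 11 tested with G-NHA9 (median log2 fold change 0.05) and 3 higher and 4 lower with G-NHA9Midi (median -0.12). *Gata1*, needed for the eosinophil, erythroid and mast cell lineages, was 19.8 ± 3.58 CPM (SD, n = 5) with the empty vector, 14.1 ± 3.57 with G-NHA9 and 4.16 ± 1.31 with G-NHA9Midi (-2.25 ± 0.23, SE, adjusted p = 2.4e-09). Its cofactor *Zfpm1* fell with G-NHA9Midi (-0.97 ± 0.24, SE, adjusted p = 0.00151). *Cebpe*, of late granulocytes, rose with G-NHA9 (1.02 ± 0.21, SE, adjusted p = 0.000357), and *Xbp1*, needed for eosinophil secretory proteins, rose with both (0.56 ± 0.12, SE, adjusted p = 0.000372 and 1.06 ± 0.12, SE, adjusted p = 1.1e-08). *Id2* fell with both (-1.01 and -1.15), and *Spi1*, which encodes PU.1, fell with G-NHA9 (-0.38).

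*Csf2rb*, the chain shared by the IL-5, IL-3 and GM-CSF receptors, was 1438 ± 253 CPM with the empty vector and 1005 ± 236 CPM with G-NHA9Midi (-0.52 ± 0.17, SE, adjusted p = 0.0133), and its IL-3-specific copy *Csf2rb2*, with which reads could be split, changed by -1.47 ± 0.52 (SE, adjusted p = 0.0232). The following list counts stand beside shares over all genes of 16.9% higher and 15.2% lower with G-NHA9. With G-NHA9Midi these shares were 20.5% and 20.0%, and many of the counts are near them. The list of this receptor signalling had 3 lower of 12 tested with G-NHA9 (median -0.12), the GM-CSF receptor gene *Csf2ra* among them (-0.66 ± 0.11, SE, adjusted p = 1.7e-05), and 2 higher and 5 lower with G-NHA9Midi (median -0.20). The kinase gene *Jak1* (-0.32 with G-NHA9), *Stat5b* (-0.29 and -0.35) and *Pim1* (0.47 with G-NHA9Midi) passed with small changes. Other surface receptors of eosinophils had 1 higher and 4 lower of 11 tested with G-NHA9 (median log2 fold change -0.25) and 3 higher and 6 lower with G-NHA9Midi (median -0.38). *Il1rl1*, the IL-33 receptor that basophils and mast cells also carry, changed by -1.54 ± 0.24 (SE, adjusted p = 6.4e-06) and -1.61 ± 0.24 (SE, adjusted p = 1.7e-06), and the tetraspanin *Cd9* by -1.26 ± 0.19 (SE, adjusted p = 2.6e-06) and -1.30 ± 0.19 (SE, adjusted p = 8.5e-07). *Ptafr*, the receptor for platelet-activating factor, rose with G-NHA9 (0.93 ± 0.14, SE, adjusted p = 3.4e-06), while *C3ar1* fell with both (-0.58 and -1.16) and *Adgre1* with G-NHA9Midi (-0.60). Of 5 ligands of CCR3, 4 were tested, and 1 of them, *Ccl5*, was higher with G-NHA9 (1.04 ± 0.37, SE, adjusted p = 0.0273). The eicosanoid enzymes around *Alox15* had 2 higher and 4 lower of 9 tested with G-NHA9 (median log2 fold change -0.19) and 1 higher and 6 lower with G-NHA9Midi (median -0.52). *Alox12* was at -1.29 ± 0.42 (SE, adjusted p = 0.0163) and -4.13 ± 0.48 (SE, adjusted p = 2.8e-08), *Ltc4s*, which makes leukotriene C4, at -0.97 ± 0.19 (SE, adjusted p = 0.000129) and -2.53 ± 0.20 (SE, adjusted p = 7.0e-12), and *Lta4h*, of the leukotriene B4 branch, at 0.86 ± 0.17 (SE, adjusted p = 0.00018) and 0.69 ± 0.17 (SE, adjusted p = 0.00144). *Ptgs1* was at -0.90 with G-NHA9 and *Hpgds* at -0.76 with G-NHA9Midi.

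Markers of other cells in the cultures moved with several of these comparisons, and their part in the members' values was not tested. There were 12 mast cell and basophil markers, all over 3 counts in every group. Of these, 8 were lower with G-NHA9 (15.2% of all genes were), 9 with G-NHA9-8FA (13.2%) and 10 with G-NHA9Midi (20.0%). Their summed level was 1438 to 3848 CPM with the empty vector, 716 to 1036 with G-NHA9, 655 to 991 with G-NHA9-8FA and 499 to 934 with G-NHA9Midi. The tryptase *Tpsb2* changed by -3.36 ± 0.38 (SE, adjusted p = 3.1e-08) and -4.35 ± 0.40 (SE, adjusted p = 2.5e-10) with G-NHA9 and G-NHA9Midi. Between G-NHA9-8FA and G-NHA9, 0 of these 12 markers were lower (8.04% of all genes were) and 1 was higher. Their median was 0.04, beside 0.01 over all genes. In that comparison 9 members and all 10 erythroid markers (median -3.84) were lower. The sum of the mast cell and basophil markers was 3996 to 5699 CPM with G-NHA9-21FGAA and 2945 to 6837 CPM with G-NHA9Midi-21FGAA. With G-NHA9-ΔDNA it was 2992 to 4525 CPM. Of 10 erythroid markers, 10 were lower with G-NHA9-8FA (13.2% of all genes were) and 9 with G-NHA9Midi (20.0%) than with the empty vector. With G-NHA9 their median was -0.28. Their sum was 228 to 709 CPM with the empty vector, 183 to 500.4 with G-NHA9, 23.9 to 72.9 with G-NHA9-8FA and 41.3 to 78.5 with G-NHA9Midi. It was 354 to 1747 CPM with G-NHA9-21FGAA, 484 to 1521 CPM with G-NHA9Midi-21FGAA and 417 to 1635 CPM with G-NHA9-ΔDNA. Between G-NHA9Midi-21FGAA and G-NHA9Midi, 9 members were higher (median of all 10 4.55), and 21.0% of all genes were. There all 10 erythroid markers (median 6.14) and all 12 mast cell and basophil markers (median 4.40) were higher too. Against G-NHA9, 7 erythroid and 10 mast cell and basophil markers were higher with G-NHA9-21FGAA (8.91% of all genes were), and 7 and 10 with G-NHA9-ΔDNA (10.7%). Of 12 neutrophil markers, 8 were higher with G-NHA9-8FA (13.4% of all genes were), and 5 higher (20.5%) and 3 lower (20.0%) with G-NHA9Midi. With G-NHA9 3 were higher (16.9%) and 1 lower (15.2%), and with G-NHA9-ΔDNA 6 were higher (9.85%) and 1 lower (7.35%). Their sum was 9024 to 13316 CPM with the empty vector, 15773 to 35014 with G-NHA9-8FA, 10616 to 22724 with G-NHA9Midi, 9537 to 15680.0 with G-NHA9 and 12120.3 to 21369 with G-NHA9-ΔDNA. Macrophage markers had 3 higher (16.9% of all genes were) and 7 lower (15.2%) of 13 with G-NHA9, and 9 lower with G-NHA9Midi (20.0%). With G-NHA9 *C1qb* and *C1qc* were among the higher ones. *Chil3* (-2.39 ± 0.31, SE, adjusted p = 3.5e-07) and *Marco* (-2.34 ± 0.31, SE, adjusted p = 4.5e-07) were among the lower ones.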

How the data were processed

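Total RNA of sorted and cultured lin- HSPCs was sequenced as stranded TruSeq libraries on a NovaSeq. The submitters' processing notes name STAR 2.7.0d, HTSeq 0.11.2, DESeq2 and the mouse build mm10, while the annotation and the strand setting of the counting are not given in the sources used here. The authors deposited raw, unnormalised counts per gene for 35 libraries in 1 table, which were used as deposited. Groups were taken from the labels, with 5 libraries each, and 12 comparisons were made.

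Genes were kept by edgeR's filterByExpr (17166 of 49671), scaled by TMM and fitted over all 35 libraries with the quasi-likelihood test of edgeR 4.0.16 (limma 3.58.1, R 4.3.3), with Benjamini-Hochberg adjustment over all genes tested and a threshold of 0.05. CPM were taken from the TMM-scaled library sizes, and log2 CPM used a prior count of 2. Alternatives were DESeq2 1.42.0, its size factors (RLE) in edgeR, no TMM, no filter, a mean of at least 1 CPM, fits to 2 groups only, the replicate number as a block, 8-week mice only and leaving out each library. The fitting script was tested on simulated data. Tables and figures were made with Python 3.11.15 (numpy 2.4.6, pandas 2.3.3, matplotlib 3.10.9 and Biopython 1.88). Positions came from GENCODE M21 (GRCm38), whose gene identifiers matched 49326 of the 49671 deposited ones (99.3%) without version, and coding sequence from its transcripts. RefSeq promoters (GRCm38.p6) were matched by symbol.

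The 10 members and all gene lists were chosen with earlier results of these data known. Genes of the lists were named from the up to 4 per list that passed the test with the largest absolute log2 fold change and averaged 1 CPM or more, with G-NHA9 or G-NHA9Midi against the empty vector. *C1qa* was named outside this rule, after its values were seen. Of the 10 genes whose pattern was most like the members', 1 is not reported here. What the replicate numbers stand for is not labelled. The deviations of libraries with the same number correlated at 0.23 on average, and of others at -0.06. In 5 of 12 comparisons all 5 pairs were over 0.1, and there the numbers were taken to pair the libraries. These were the empty vector with G-NHA9-ΔDNA, G-NHA9Midi-21FGAA or G-NHA9, and G-NHA9 with G-NHA9-ΔDNA or G-NHA9-21FGAA. The rule rests on the same counts, the main tests leave the pairing out, and the empty vector with G-NHA9-21FGAA did not meet it. Libraries numbered 1 came from mice of 8 weeks (empty vector) and 11 weeks (G-NHA9), so a number need not stand for a single animal. Total counts were 31559914 to 75810659 per library.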

Additional observations from a re-analysis of the deposited data

Results flagged for a closer look

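The effect of 21FGAA differed between the full-length and the shortened form for 9 of the 10 members, by the interaction term of edgeR's quasi-likelihood test. The log2 difference, the effect in the full-length form minus that in the shortened form, was -3.12 (adjusted p = 0.000209) for *Prg2*, -3.60 (adjusted p = 2.7e-05) for *Prg3*, -4.10 (adjusted p = 2.0e-05) for *Epx*, -3.29 (adjusted p = 0.0075) for *Ear1*, -2.26 (adjusted p = 6.8e-05) for *Ear2*, -3.15 (adjusted p = 0.000206) for *Ear6*, -0.69 (adjusted p = 0.0161) for *Siglecf*, -2.50 (adjusted p = 0.00338) for *Il5ra* and -3.08 (adjusted p = 0.000649) for *Alox15*. Of all genes tested, 12.6% passed this test. The comparison was added after the values had been seen. The starting levels of the forms differed, with 9 members lower with G-NHA9Midi than with G-NHA9, so the differences largely restate that comparison. For *Epx* the log2 fold change of G-NHA9Midi against G-NHA9 was -4.55. The G-NHA9-21FGAA and G-NHA9Midi-21FGAA libraries overlapped for each of these members. For *Epx* and *Ear1* the difference was -4.73 and -4.31 without G-NHA9Midi library 5, the highest of its group for both.

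*Ear1* in empty vector library 2 was 81.4 CPM, against 37.9 to 47.3 CPM in the other 4 libraries of the group, a gap of 0.784 of the group's range. This was 1 of 70 combinations of a member and a group examined, and chance sets apart about 5% of such groups. The same library was the highest of its group for 5 of the 10 members.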

How the results depend on the processing

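The log2 fold changes of the members and the numbers of members called were recomputed under each alternative, and summed levels, ratios, correlations and list counts were not. Of the recomputed log2 fold changes of single members, 2325 kept their direction and their side of the threshold, 50 lost and 29 gained a call, and 23 changed sign, all of the latter below the threshold. The number of members called moved by over 1.5 times in 5 settings. Without TMM it was 2 (against 1) with G-NHA9-21FGAA and 2 (against 1) with G-NHA9Midi-21FGAA, both against the empty vector. Blocking on the replicate number gave 2 with G-NHA9Midi-21FGAA. With no filter, and with 8-week mice only, it was 1 (against 2) with G-NHA9-ΔDNA. In a fit to the 2 groups only it was 2 (against 4) between G-NHA9Midi and G-NHA9-8FA. The cause was not tested. In comparisons where the numbers were not taken to pair the libraries, the block added *Ccr3* between G-NHA9Midi and G-NHA9 (0.65, adjusted p = 0.0385) and *Prg2* (-1.08, adjusted p = 0.0463) and *Prg3* (-1.26, adjusted p = 0.0477) between G-NHA9Midi and G-NHA9-8FA. Where they were, the block changed no call other than those given in the report.

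Leaving out 1 library gave 5 members called with G-NHA9, 9 with G-NHA9-8FA, 10 with G-NHA9Midi, 0 to 1 with G-NHA9-21FGAA (*Il5ra*), 1 with G-NHA9Midi-21FGAA and 1 to 3 with G-NHA9-ΔDNA against the empty vector. It gave 9 to 10 with G-NHA9-8FA, 9 with G-NHA9Midi, 5 to 7 with G-NHA9-21FGAA and 6 to 9 with G-NHA9-ΔDNA against G-NHA9, 10 for G-NHA9Midi-21FGAA against G-NHA9Midi, 2 to 6 for G-NHA9Midi against G-NHA9-8FA, and 9 for the interaction. The signs that changed were of *Ear2* with G-NHA9-21FGAA (0.061 without TMM, -0.30 to 0.054 without 1 library), and with G-NHA9Midi-21FGAA of *Prg3* (0.12 without TMM, 0.016 with no filter, 0.042 with 8-week mice, -0.16 to 0.17 without 1 library), *Prg2* (-0.027 with the block, -0.023 with 8-week mice, -0.12 to 0.25 without 1 library), *Epx* (0.0073 with 8-week mice) and *Ccr3* (-0.058 with 8-week mice, -0.045 to 0.36 without 1 library), all against the empty vector. *Ccr3* with G-NHA9-ΔDNA was -0.017 with 8-week mice, *Alox15* with G-NHA9 was -0.76 to 0.0032 without 1 library, and *Il5ra* between G-NHA9Midi and G-NHA9-8FA was -0.016 to 0.91 without 1 library.

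Without TMM the median of all genes shifted by up to 0.19, and with no filter by up to -0.14, on the log2 scale. Without TMM *Ccr3* passed with G-NHA9 (0.75, adjusted p = 0.0454). In fits to 2 groups only, *Epx* passed with G-NHA9 (-0.94, adjusted p = 0.0302), and *Ear6* in G-NHA9-8FA and in G-NHA9-21FGAA against G-NHA9 and *Alox15* in G-NHA9-ΔDNA against G-NHA9 lost their calls (adjusted p = 0.0678, 0.072 and 0.0754). A minimum of 1 CPM on average left *Ccr3* without a value. Depth limits *Il5ra*, with 0 to 7 counts a library in its lowest groups. Reads shared among the *Ear* copies, the differing sort gates and the mixed cultures limit what a level stands for.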

Other observations

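The genes most like the members over the 35 libraries were sought among 12775 genes that averaged 1 CPM or more, a number that includes members. Members aside, they were *Ldhc* (r of log2 CPM with the members' mean z-score 0.97), the germ cell form of lactate dehydrogenase, and *Gm8113* (0.97), which lies between *Ear1* and *Ear2* on chromosome 14. Other genes among the 10 most alike were *Grap2*, *Mylk3*, *Rnase12*, *Cldn13*, *Aqp1*, *Prkcq* and *Slc38a5*, with r of 0.92 to 0.94. For deviations from group means, r was 0.85 for *Gm8113* and 0.74 for *Ldhc*, and 0.14 to 0.53 for these 7, which include the erythroid genes *Aqp1* and *Cldn13*. All genes of a library share its depth and group, and these values are descriptions. *Gm8113* may share reads with the *Ear* copies beside it, which was not tested.

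*Ldhc* was 1.31 ± 0.416 CPM (SD, n = 5) with the empty vector, 0.644 ± 0.340 with G-NHA9, 0.209 ± 0.0668 with G-NHA9-8FA and 0.117 ± 0.0405 with G-NHA9Midi, and it fell by edgeR's quasi-likelihood test with G-NHA9 (-1.02 ± 0.30, SE, adjusted p = 0.00785) and with G-NHA9Midi (-3.47 ± 0.36, SE, adjusted p = 2.7e-09). *Gm8113* was 10.0 ± 2.93, 9.19 ± 3.48, 1.35 ± 0.824 and 1.03 ± 0.179 CPM in the same groups. It fell with G-NHA9Midi (-3.29 ± 0.37, SE, adjusted p = 1.1e-08) and did not pass with G-NHA9 (-0.12 ± 0.32, SE, adjusted p = 0.813). *Slc38a5*, a glutamine transporter, did not pass with G-NHA9 (-0.11 ± 0.41, SE, adjusted p = 0.874) and fell with G-NHA9-8FA (-5.73 ± 0.67, SE, adjusted p = 6.9e-08) and G-NHA9Midi (-6.38 ± 0.72, SE, adjusted p = 1.2e-08), where some libraries held 0 counts.

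Single libraries led or trailed their group for many members at once. G-NHA9 library 4 and G-NHA9Midi-21FGAA library 4 were each the lowest of their group for 8 of the 10 members, and G-NHA9-8FA library 1 for 7. G-NHA9-21FGAA library 2 was the highest of its group for 8, G-NHA9-8FA library 5 and G-NHA9Midi-21FGAA library 2 for 7 each, and G-NHA9Midi library 5 for 6. These ranks are descriptions of genes that share a library.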
